A study of Mus musculus with 7 samples.

Results

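The semaphorins are guidance proteins, and the plexins and neuropilins are their receptors. They were taken from the deposited table by gene name: every gene of semaphorin classes 3 to 7, every plexin of the A, B, C and D families, and both neuropilins. The rule found 31 genes among 18335 rows, of which 20 encode semaphorins, 9 plexins and 2 neuropilins. RNA had been measured in neurons sorted by fluorescence from dissected arcuate nuclei of mouse embryos at E15.5, the embryonic stage the labels give, from 1 ng of total RNA per library. One group was Pomc neurons, which make the precursor of appetite-suppressing melanocortin peptides, with 4 libraries. The other was Npy neurons, which make the appetite-stimulating neuropeptide Y, with 2 libraries used; the column of Npy replicate 3 is computed from these 2 and was left out. The sources used here give neither the reporter allele of the sort nor the strain, nor which animals or litters made up a replicate; p-values therefore reflect the spread between these libraries, and that spread may be technical.

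Semaphorins are secreted or membrane-bound ligands that steer growing axons, mostly by repulsion. Class 3 members are secreted and, with the exception of Sema3e, which binds plexin D1 directly, act through a complex of a neuropilin, which binds the ligand, and a class A plexin, which signals into the cell. Classes 4 to 7 are held in the membrane and bind plexins directly: class 4 mainly B plexins, class 6 mainly A plexins, and Sema7a plexin C1 as well as integrins. In the melanocortin system, class 3 semaphorins are known for guiding arcuate axons: loss of Nrp2 from Pomc neurons of the mouse reduces their projection to the paraventricular hypothalamus, and rare human variants in genes of this pathway have been linked to severe obesity.

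The header of the deposited values names no unit, and they were treated as TPM. This measure corrects for transcript length and gives every library the same total. That reading was not tested, and comparisons of levels between genes, including sums, shares and ratios, depend on it. Differences are log2 fold changes, Pomc minus Npy, on the log2(TPM + 1) scale, from limma's moderated test over all 13845 genes that reached 1 TPM in at least 2 libraries. The threshold is an adjusted p of 0.05 (Benjamini-Hochberg, two-sided). Of the 31 genes, 29 were tested. Sema3b and Plxnb3 were not, with at most 1.35 and 1.43 TPM in any library.

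Of the sort markers, Pomc passed the threshold, Npy lay higher in Npy neurons without overlap but did not pass, and Agrp overlapped. Pomc RNA averaged 518 ± 189 TPM (SD, n = 4) in Pomc neurons against 24.0 and 59.4 TPM in Npy neurons (log2 fold change 3.67 ± 0.39 (SE), limma adjusted p = 0.00454; exact permutation p = 0.0667, the smallest that 15 splits allow). Npy RNA ranged from 2.11 to 152 TPM in Pomc neurons against 728 and 513 TPM in Npy neurons (adjusted p = 0.418; exact permutation p = 0.133). Agrp did not separate the groups (0 to 6.82 TPM against 5.53 and 1.75; exact permutation p = 0.667). Genes above 0 ranged from 12493 to 14933 per library, and 26 to 31 of the semaphorin, plexin and neuropilin genes were above 0. The deposited values give no read counts, so the depth behind a level is unknown.

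Some markers of other cells and of neuron subtypes moved with the groups; over all tested genes, 0.412% were called and in 15.9% the groups did not overlap. The 6 oligodendrocyte precursor markers summed to 0.444 to 2.64 TPM in Pomc and to 227.9 and 207 TPM in Npy. All 6 were called higher in Npy, and Olig2 and Cspg4 were listed at 0 in all 4 Pomc libraries. Pdgfra, Olig2, Sox10, Cspg4 and Gpr17 reached 1 TPM only in Npy libraries, so the counts favour an Npy direction for them. The most abundant of the 6 were Pdgfra (at most 0.484 TPM against 83.7 and 77.5) and Olig1 (at most 2.43 TPM against 54.8 and 43.9). The 5 GABAergic markers, led by Gad1 and Slc32a1, summed to 112 to 175 TPM in Pomc and to 551 and 513 TPM in Npy, and all 5 separated the groups. The 4 genes listed as ventromedial hypothalamus markers were led by Nr5a1 and Slc17a6. They summed to 216 to 349.5 TPM in Pomc and to 17.5 and 6.68 TPM in Npy, and all 4 separated the groups. Adcyap1 reached 1 TPM only in Pomc libraries, so the counts favour a Pomc direction for it. Whether the listed genes mark ventromedial cells in these libraries was not tested. The 8 pan-neuronal markers, led by Tubb3 and Map2, summed to 4789 to 5492 TPM in Pomc and to 4159 and 3386 TPM in Npy, with 3 of 8 separating the groups. The 6 endothelial markers, among them the neuropilin partner Kdr, were near the bottom of the scale in both groups, at 0.656 to 10.7 TPM in sum in Pomc and 1.73 and 3.01 TPM in Npy. The 7 radial glia and astrocyte markers overlapped in sum (258 to 638 TPM in Pomc, 604 and 404 TPM in Npy). Of them 3, Fabp7, Nes and Hes5, named after their values were seen, lay higher in Npy without overlap. Fabp7 stood at 323 and 176 TPM against at most 61.6 TPM. The others overlapped between the groups. Of the 7, 2 had log2 fold changes above 0, Vim (201 to 530 TPM in Pomc, 206 and 155 TPM in Npy) and Aldh1l1. The 6 microglia markers summed to 43.0 TPM in Pomc replicate 4, to at most 0.263 TPM in the other Pomc libraries and to 3.79 and 9.97 TPM in Npy. The summed levels of pericyte and fibroblast markers overlapped between the groups. The part that the shifted cell populations have in the differences below was not tested, and in bulk RNA fewer cells of a type and less RNA per cell cannot be told apart.

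The libraries of both neuron types held RNA of a nearly complete set of semaphorin receptors, and class A and B plexins made up most of it. Which cells in the sorted material carried this RNA was not tested. Plxna1, a co-receptor shared by class 3 and class 6 semaphorins, was the most abundant of the 31 genes, with 367, 452, 362 and 291 TPM in Pomc replicates 1 to 4 against 272 and 393 TPM in Npy replicates 1 and 2. The Npy range held most of the Pomc values, and the log2 fold change was 0.15 with a 95% interval from -0.35 to 0.66. Plxna1 supplied 37.4 to 43.1% of all plexin TPM in the Pomc libraries and 31.7 and 44.6% in the Npy libraries.

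Plxnb1, the receptor of Sema4d, was next, at 122, 195, 179 and 124 TPM in Pomc and 142 and 146 TPM in Npy. Plxnb2, which binds Sema4c, stood close to it, at 126, 206, 145 and 120 TPM against 136 and 137. The spread of these genes over the Pomc libraries covered both Npy values. Plxna3, which works with neuropilin-2, reached 106, 125, 117 and 85.4 TPM in Pomc and 90.9 and 88.7 TPM in Npy. Plxnc1, a receptor of Sema7a, reached 75.8, 92.3, 79.8 and 104.6 TPM against 113 and 76.8. For these 4 plexins every 95% interval of the log2 fold change lay between -0.63 and 0.73. Plxna4 was lower and uneven, at 10.7 to 29.4 TPM in Pomc and 40.8 and 13.4 TPM in Npy. Plxnd1, the receptor of Sema3e, was scarce, at 1.22 to 4.34 TPM in Pomc and at 6.21 TPM in Npy replicate 1, and was listed at 0 in Npy replicate 2.

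**Figure D1:**
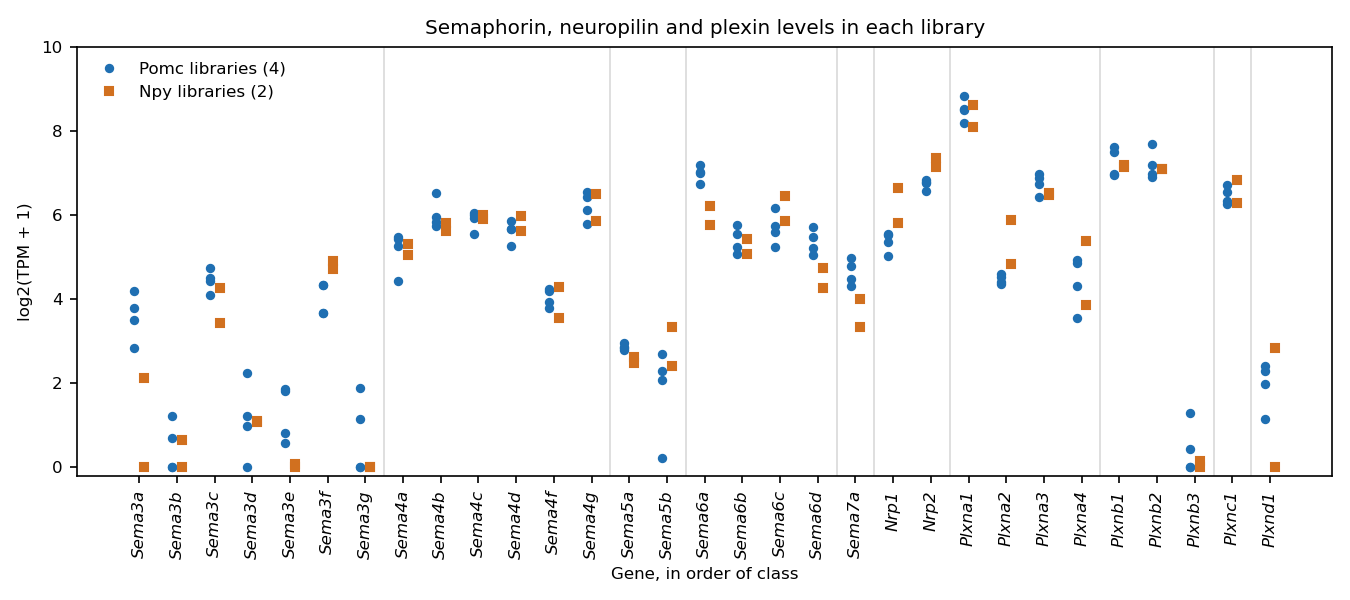
Levels of the 31 genes as log2(TPM + 1), in order of class, with 1 point per library: circles for the 4 Pomc libraries and squares for the 2 Npy libraries. Plxna1 is the highest gene in every library, most plexins and class 4 semaphorins overlap between the groups, and the circles of Sema6a, Sema6d and Sema7a lie above the squares while those of Nrp1, Nrp2 and Plxna2 lie below them.

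By limma, none of the 29 tested genes reached the threshold in either direction, where 0.412% of all tested genes did. The smallest adjusted p was 0.163, for Sema6a. By direction, the background was 0.289% higher in Pomc and 0.123% higher in Npy. An unadjusted p under 0.05 was reached by 7 genes, or 24.1% of those tested, against a background of 7.36%. Of these, 4 had higher values in Pomc (Sema6a, Sema3a, Sema6d and Sema7a; background 4.08%) and 3 had higher values in Npy (Nrp2, Nrp1 and Plxna2; background 3.28%). All 4 of the former encode ligands and all 3 of the latter encode receptor subunits. That split did not extend to all tested genes. Log2 fold changes were above 0 in 13 of 19 semaphorins, 5 of 8 plexins and 0 of 2 neuropilins. The groups did not overlap in 10 of 29 genes (34.5%, background 15.9%). Pomc lay above Npy in 6 (background 8.05%) and Npy above Pomc in 4 (background 7.86%). Besides the 7 these were Sema3e and Sema5a, with Pomc above Npy, and Sema3f, with Npy above Pomc. These genes are more abundant and less noisy than the average gene (median mean log2(TPM + 1) of 5.16 against 4.57, median SE of 0.33 against 0.45). Among genes with a mean of at least 4 on that scale, the shares were 27.3% for the 22 family genes and 7.18% for all 8241 genes at an unadjusted p under 0.05, and 31.8% and 16.1% for groups that did not overlap. Sema3e and Sema3g reached the filter through Pomc libraries alone, so the counts over tested genes favour a Pomc direction for them. The median log2 fold change of the 29 genes was 0.09, with 18 above 0, and that of all tested genes was 0.02.

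**Figure D2:**
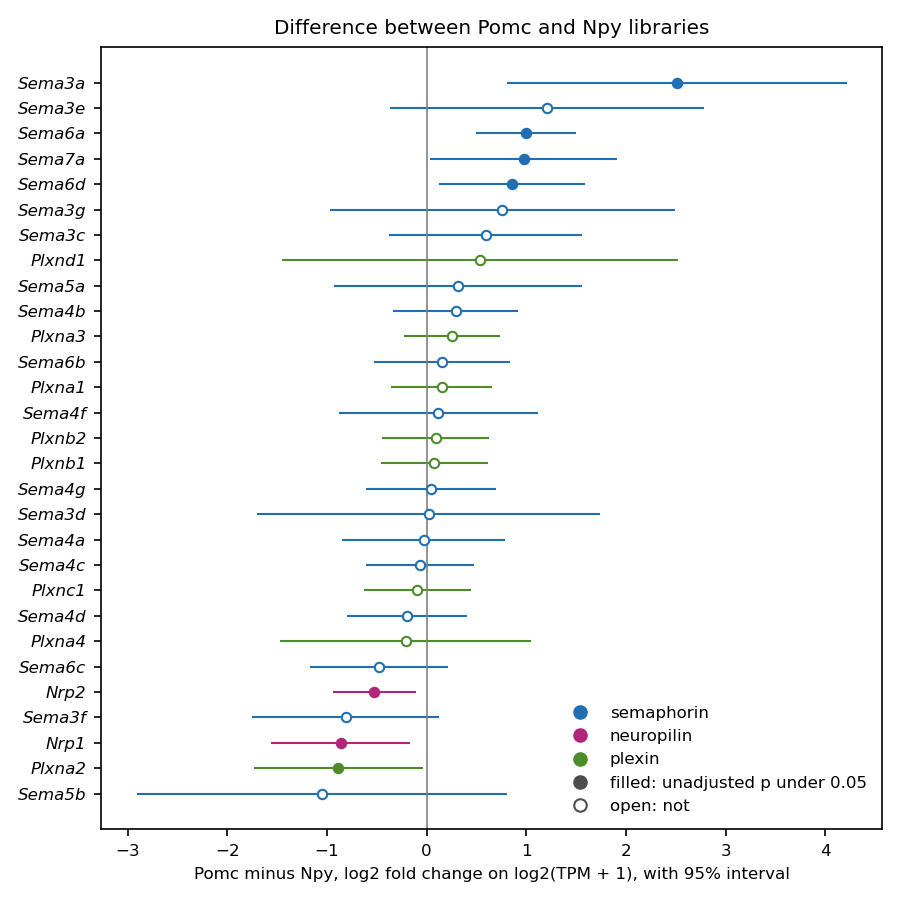
Log2 fold change, Pomc minus Npy, of the 29 tested genes on the log2(TPM + 1) scale, with limma's 95% interval, by gene; filled points have an unadjusted p under 0.05, and colour marks semaphorins, neuropilins and plexins. Filled points on the right are 4 semaphorins and those on the left are both neuropilins and Plxna2, while the intervals of the class 4 semaphorins and most plexins cross 0.

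For 3 of the 7 genes, the stretch before the annotated start that overlaps no annotated exon is shown as sequence context for genes whose levels separated the groups; its activity was not measured. Each runs from 250 to 51 bases before the RefSeq start (GRCm38.p6, plus strand), and capitals mark a match to one of the motifs named below. The windows are chr1:62703067-62703266 for Nrp2, chr2:124089719-124089918 for Sema6d (the more upstream of its 2 RefSeq starts) and chr9:57939862-57940061 for Sema7a.
Nrp2: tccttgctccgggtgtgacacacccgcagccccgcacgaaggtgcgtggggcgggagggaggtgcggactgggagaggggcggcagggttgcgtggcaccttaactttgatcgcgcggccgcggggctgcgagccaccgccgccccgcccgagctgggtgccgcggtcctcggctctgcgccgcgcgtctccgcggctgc
Sema6d: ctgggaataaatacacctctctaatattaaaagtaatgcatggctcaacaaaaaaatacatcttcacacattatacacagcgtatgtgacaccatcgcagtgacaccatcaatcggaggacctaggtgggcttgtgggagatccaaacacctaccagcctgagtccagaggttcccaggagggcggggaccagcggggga
Sema7a: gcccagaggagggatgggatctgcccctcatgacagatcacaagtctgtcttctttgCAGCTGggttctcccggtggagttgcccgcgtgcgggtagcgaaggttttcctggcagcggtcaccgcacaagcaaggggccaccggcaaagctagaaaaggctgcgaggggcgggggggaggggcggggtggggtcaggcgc

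The windows differed in composition. That of Nrp2 held 28 CpG dinucleotides and 75.5% G or C, that of Sema7a 12 and 65.5%, and that of Sema6d 5 and 49.0%. The other Sema6d window, not shown, held 5 and 46.0%, with no motif match. The median over the 37 windows of 26 family genes was 9 CpG and 62.5% G or C, against 4 and 51.5% over all 32851 RefSeq windows. For 28 of the 37, the first 40 bases after the start were found in a transcript of a family gene. The counts below use all 37. Each window was searched on both strands for 3 short motifs, which share no overlap in the windows shown. The E-box of helix-loop-helix factors, CAGCTG, occurred in 5 of the 37 windows, Sema7a among them, and in 10.3% of all windows. The site of steroidogenic factor 1 and related nuclear receptors, AAGGTCA, occurred in 3 of 37 (Nrp1, Sema4b and Sema5a) and in 3.36% of all. The homeodomain core, TAATTA, occurred in 0 of 37 and in 4.19% of all. A match is a description of these letters and not a binding site. Plxna1, Plxna4, Sema3b, Sema3f and Sema6a had no entry.

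Of the 4 class 6 semaphorins, transmembrane ligands of A plexins, 2 separated the groups. Sema6a (chromosome 18, 47235598 to 47368870, GRCm38, minus strand) stood at 128, 105, 146 and 128 TPM in Pomc replicates 1 to 4 and at 73.2 and 53.5 TPM in Npy replicates 1 and 2. Every Pomc library was above both Npy libraries, and the ratio of the means was 2.00 (log2 fold change 1.00 ± 0.22 (SE), limma adjusted p = 0.163). Sema6d (chromosome 2, 124089969 to 124667770) stood at 32.2, 51.9, 36.1 and 43.5 TPM in Pomc and at 25.9 and 18.3 TPM in Npy, again without overlap (log2 fold change 0.86 ± 0.33, adjusted p = 0.575). The other members of the class did not follow them. Sema6b reached 36.9, 45.8, 32.9 and 53.8 TPM against 32.8 and 42.3, and Sema6c, which had a log2 fold change below 0 (-0.47, 95% interval -1.17 to 0.22), reached 47.4, 70.5, 52.1 and 37.0 TPM against 57.5 and 86.3.

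The class A plexin that serves as a main receptor of Sema6a showed the reverse pattern. Plxna2 (chromosome 1, 194618218 to 194816869) stood at 23.3, 20.2, 19.6 and 22.0 TPM in Pomc and at 57.9 and 27.6 TPM in Npy. The Pomc libraries were tightly grouped below both Npy libraries, which differed widely from each other (log2 fold change -0.89 ± 0.38, limma adjusted p = 0.65). Without Npy replicate 1 the log2 fold change was -0.37. Within each library, the Sema6a level was 5.51, 5.21, 7.46 and 5.83 times that of Plxna2 in Pomc and 1.26 and 1.94 times in Npy. For Sema6a and Sema6d together against Plxna2 and Plxna4 the ratio was 3.14 to 5.08 in Pomc and 1.00 and 1.75 in Npy. Plxna1, the most abundant A plexin (291 to 452 TPM in Pomc, 272 and 393 TPM in Npy), is in neither ratio. For all semaphorins against all plexins the ratio overlapped, at 0.625 to 0.776 in Pomc and 0.662 and 0.612 in Npy. The ratios combine genes already described and were given no test.

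Both neuropilins had higher values in the Npy libraries. Nrp2 (chromosome 1, 62703285 to 62818695), which binds Sema3f and Sema3c, stood at 94.4, 109, 112 and 108 TPM in Pomc and at 141 and 164 TPM in Npy. The Pomc libraries had a narrow range that ended below the lower Npy value, and the ratio of the Npy mean to the Pomc mean was 1.44 (log2 fold change -0.52 ± 0.18, limma adjusted p = 0.546). Nrp1 (chromosome 8, 128358604 to 128503363), which binds Sema3a and is also a receptor of vascular endothelial growth factor, stood at 31.6, 45.4, 40.2 and 45.9 TPM in Pomc and at 99.9 and 55.0 TPM in Npy. The groups did not overlap, but most of the difference came with Npy replicate 1 (log2 fold change -0.86 ± 0.31, adjusted p = 0.556; -0.44 without that replicate). Nrp2 exceeded Nrp1 in every library, by 2.36 to 2.99 times in Pomc and by 1.42 and 2.98 times in Npy. Summed, the 2 neuropilins reached 126 to 154 TPM in Pomc and 241 and 219 TPM in Npy.

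Class 3 holds the most semaphorin genes, 7, but supplied 6.41 to 11.0% of all semaphorin TPM in Pomc and 9.21 and 6.70% in Npy. Sema3a, the founding repellent ligand of Nrp1, stood at 12.8, 6.11, 10.3 and 17.3 TPM in Pomc and at 3.39 TPM in Npy replicate 1, and was listed at 0 in Npy replicate 2. Its log2 fold change was the largest among the 29 genes, at 2.51, and also among the least precise (SE 0.76, limma adjusted p = 0.396). It was 1.44 without Npy replicate 2 and 3.58 without Npy replicate 1. Sema3f (chromosome 9, 107681500 to 107710475), the main ligand of Nrp2, had the opposite sign, at 11.7, 11.8, 19.1 and 19.0 TPM in Pomc and 29.0 and 25.3 TPM in Npy (log2 fold change -0.81 ± 0.42, adjusted p = 0.754). The Sema3a level was 0.518 to 1.09 times that of Sema3f in Pomc and 0.117 times in Npy replicate 1.

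Sema3c, a ligand of both neuropilins, reached 20.7, 21.7, 16.0 and 25.5 TPM in Pomc and 18.3 and 9.77 TPM in Npy, with overlap. Sema3e was low throughout, at 0.482 to 2.61 TPM in Pomc and at 0.0600 and 0.00999 TPM in Npy. Sema3d reached 0 to 3.69 TPM against 1.14 and 1.11, Sema3g was listed at 0 in both Npy libraries and in 2 Pomc libraries, and Sema3b did not exceed 1.35 TPM. Sema3a, Sema3c, Sema3d and Sema3e lie within 5.35 Mb of chromosome 5 (12383385 to 17730268), and their summed level was 30.3 to 47.3 TPM in Pomc and 22.8 and 10.9 TPM in Npy. Sema3b and Sema3f, the class 3 genes of chromosome 9, gave no such separation in that direction. The log2 fold changes of Sema3a, Sema3c and Sema3e were above 0, and Sema3e met the filter through Pomc libraries alone. That of Sema3d was 0.02 and was negative in 5 of 12 alternatives (median ratio scaling, a pseudocount of 0.1 TPM, the replicate block, and without Pomc replicate 3 or 4), down to -0.60.

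Sema7a, a membrane-anchored semaphorin that promotes axon growth through integrins, stood at 30.8, 21.2, 18.8 and 26.7 TPM in Pomc and at 15.1 and 9.04 TPM in Npy (chromosome 9, 57940112 to 57962865). The groups did not overlap, and the ratio of the means was 2.02 (log2 fold change 0.97 ± 0.42, limma adjusted p = 0.651). Of its receptors, Plxnc1 overlapped between the groups, as given above. The integrin gene Itgb1 stood at 118, 132, 99.5 and 151 TPM in Pomc and at 94.2 and 83.6 TPM in Npy, with Pomc above Npy as for Sema7a (log2 fold change 0.47 ± 0.22, limma adjusted p = 0.697). The integrin gene Itga1 did not share this pattern. It lay at 0.179 to 0.321 TPM in Pomc and at 0.0413 and 0.745 TPM in Npy, with overlap, and was too low to be tested.

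**Figure D3:**
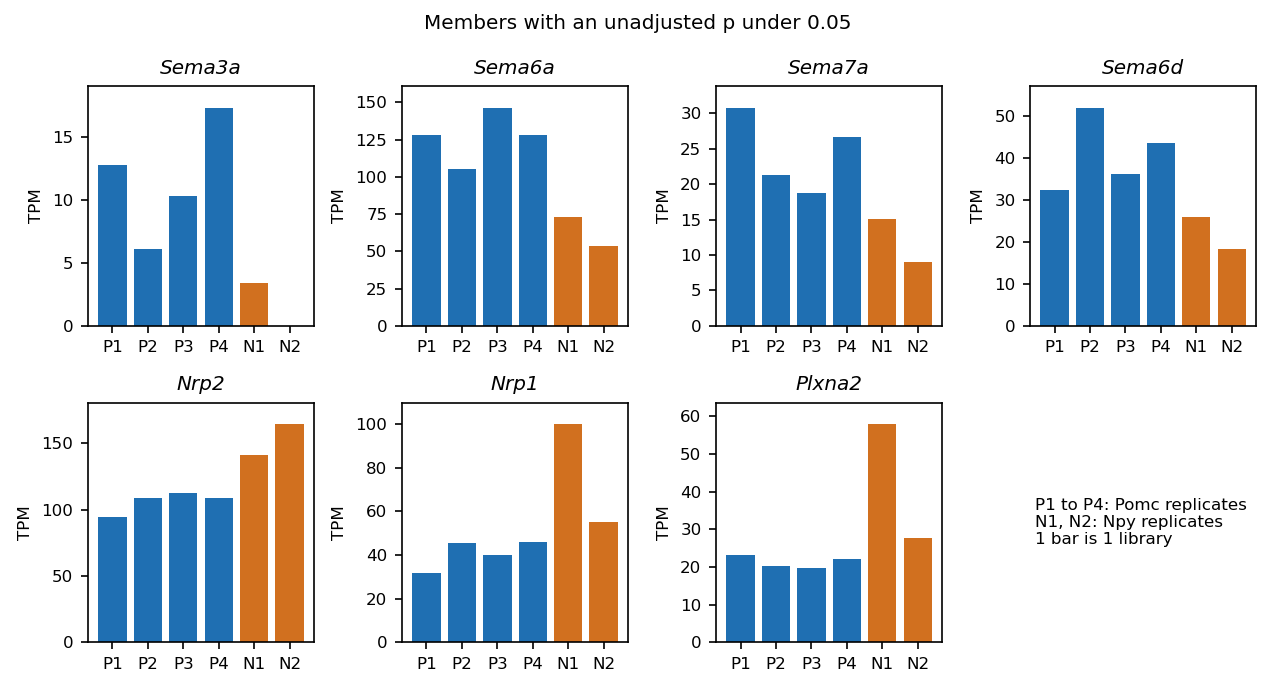
TPM in each library for the 7 genes with an unadjusted p under 0.05; P1 to P4 are the Pomc replicates, N1 and N2 the Npy replicates, and each bar is 1 library on an axis that starts at 0. Sema3a has no bar in N2, where it is listed at 0, and for Nrp1 and Plxna2 the N1 bar stands well above N2.

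Class 4 semaphorins, membrane ligands of B plexins, formed the largest ligand class in every library except Pomc replicate 4, where class 6 was larger. Sema4g had the highest mean over the groups, at 69.1, 92.6, 85.8 and 54.3 TPM in Pomc and 89.5 and 57.1 TPM in Npy. Sema4c reached 59.8, 65.2, 63.3 and 46.0 TPM against 58.9 and 62.9. Their order varied by library: Sema4b exceeded Sema4g in Pomc replicate 4 (55.8 against 54.3 TPM), and Sema4c and Sema4d (62.4 TPM) exceeded it in Npy replicate 2. All 6 overlapped between the groups. Their log2 fold changes ran from -0.19 for Sema4d to 0.29 for Sema4b. Class 4 supplied 40.0 to 49.5% of semaphorin TPM in Pomc and 53.2 and 52.0% in Npy, while class 6 supplied 39.2 to 43.5% and 33.3 and 37.1%. The summed TPM of class 4 overlapped between the groups, at 241 to 342.5 TPM in Pomc and 303 and 281 TPM in Npy. That of class 6 did not, at 245 to 273 TPM against 189 and 200 TPM. Class 5 semaphorins, which carry thrombospondin repeats, were scarce. Sema5a stood at 5.93, 6.12, 6.74 and 6.28 TPM in Pomc and 5.16 and 4.56 TPM in Npy, a small gap without overlap. Sema5b ranged from 0.159 to 5.51 TPM against 4.33 and 9.03.

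**Figure D4:**
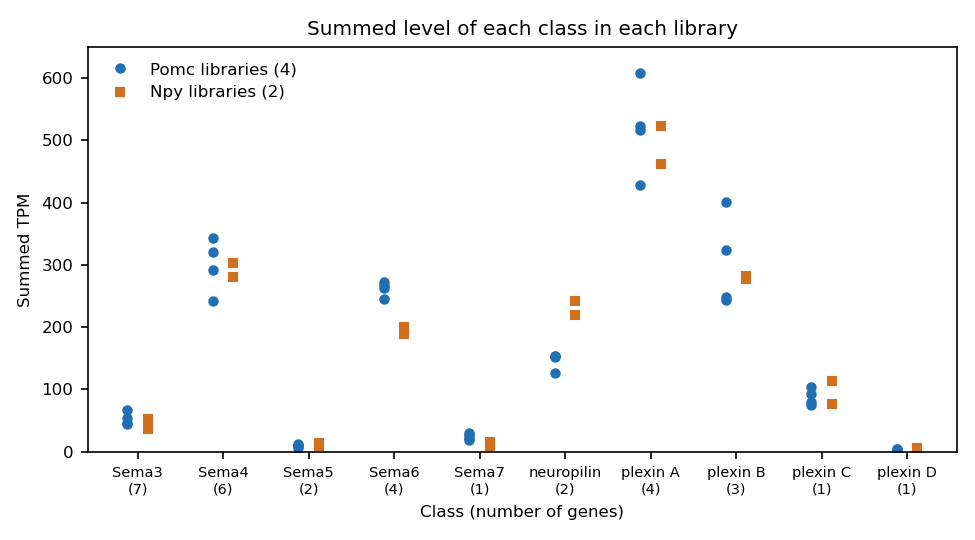
Summed TPM of each class in each library, with the number of genes per class below its name; circles are the 4 Pomc libraries and squares the 2 Npy libraries. The class 6 circles (245 to 273 TPM) lie above the squares (189 and 200 TPM), the neuropilin squares (241 and 219 TPM) lie above the circles (126 to 154 TPM), and classes 3, 4 and 5 and the A, B, C and D plexins overlap.

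Co-receptors and effectors of semaphorin signalling were read from a list of 58 genes, of which 57 were in the table and 53 were tested. By limma, 1 was called higher in Pomc (background 0.289%) and none was called higher in Npy (background 0.123%). At an unadjusted p under 0.05 there were 6 (11.3%, background 7.36%), 5 higher in Pomc (background 4.08%) and 1 higher in Npy (background 3.28%). The groups did not overlap in 13 (24.5%, background 15.9%), 12 with Pomc above Npy (background 8.05%) and 1 with Npy above Pomc (background 7.86%). The gene on the Npy side of both counts was Rras. It reached 1 TPM only in Npy libraries, so the counts favour an Npy direction for it. The median log2 fold change of the tested partners was 0.12. The gene that passed was Rnd3. It stood at 284, 199, 260 and 293 TPM in Pomc and at 106 and 102 TPM in Npy, 2.48-fold higher by the means (log2 fold change 1.29 ± 0.20, limma adjusted p = 0.034). The call ended without Pomc replicate 1, 3 or 4 (limma adjusted p up to 0.121). It also ended with median ratio scaling (0.0662), no filter (0.0806), 1 prior variance (0.219) or a replicate block (0.463). Without Npy replicate 1 or 2 the log2 fold change was 1.31 or 1.26. The direction held in all of these, but as the groups did not overlap, only the scaling or the block could have changed it. Its relative Rnd2 was uneven, at 4.91 to 40.3 TPM in Pomc and 36.9 and 52.3 TPM in Npy.

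The other named partners did not pass. Arf6, a small GTPase of membrane traffic, stood at 68.9, 84.5, 78.1 and 65.1 TPM in Pomc and at 31.8 and 43.5 TPM in Npy, without overlap (limma adjusted p = 0.26). Nrcam, an adhesion molecule that joins neuropilin-2 in receptor complexes, stood at 111, 123, 125 and 187 TPM against 95.9 and 59.8 (adjusted p = 0.505). The collapsin response mediator proteins, which relay Sema3a signals to microtubules, were among the most abundant genes of the pathway. Dpysl3 stood at 1242, 881, 979 and 1105 TPM in Pomc and at 724 and 672 TPM in Npy (adjusted p = 0.475), and Dpysl5 at 459, 419, 363 and 419.5 TPM against 314 and 315 (adjusted p = 0.65). All 5 genes of this family had log2 fold changes above 0, from 0.10 to 0.58, and none passed (2 at an unadjusted p under 0.05). Over the same libraries the pan-neuronal markers had a median log2 fold change of 0.36. Rras, a GTPase that plexins switch off, was listed at 0 in 3 Pomc libraries and at 0.101 TPM in the other, and stood at 1.22 and 3.77 TPM in Npy (adjusted p = 0.606).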

How the data were processed

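The deposited data are 1 table with 18335 rows, named by gene symbol, and 7 columns, 1 for each sample. Its header gives no unit; the 6 columns used each sum to 1000000, and the deposited values were read as TPM. The submitters' processing notes name HISAT2, edgeR 3.8 and mm10 without saying what each was used for. How reads were counted, on which annotation and whether by strand was not stated in these sources. The deposited score in the column of Npy replicate 3 is the average of the other Npy columns multiplied by 95 to 105 whole percent in 15223 of 15223 genes with a value (within 1e-04 percentage points), 30 of the 30 family genes with a value included, so it was left out (n = 4 Pomc, 2 Npy). The 4 rows of 2 repeated symbols were left out.

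Genes with 1 TPM in at least 2 of 6 libraries were fitted with limma 3.58.1 (R 4.3.3) with a variance trend on log2(TPM + 1), which understates changes of low genes. Fits were tested on simulated data, with changes placed in genes of mean log2(TPM + 1) above 4. A log2 change of 1 was called in 25 of 50 genes and a change of 2 in 41 of 50. Of unchanged genes, 8 of 13645 were called. Among the 29 family genes, 26 had a log2 fold change under 1 in size, so the lack of a call does not exclude changes of that size. Coordinates of genes are from GENCODE M21 and promoter windows from RefSeq (GRCm38). In GENCODE, exons of Nrp1, Plxna1, Plxna4, Plxnb1, Plxnc1, Sema4a and Sema4c overlap those of another gene, so their values are uncertain to that extent. Motif and composition counts use the 200 bases shown. Genes, lists and tests were chosen with earlier results of these data known. All family genes are named. Of the partners, those past the threshold and then those with the smallest p are named, up to 8, with Itga1 added beside Itgb1. Of the markers, the 2 most abundant are named in each list whose summed level did not overlap. Other markers are named where the reading of their list depends on them. Alternatives are a pseudocount of 0.1, 2 other filters, another scaling, 1 prior variance, all 7 columns, a replicate block and each library left out.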

Additional observations from a re-analysis of the deposited data

Results flagged for a closer look

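In 64 genes, sums and ratios, the Pomc library farthest from the others was set against the range of the 4 Pomc libraries. Of the 64, 4 were flagged, a share near the 1 in 20 or so that chance gives. None was a level of a single gene. The summed neuropilin level of Pomc replicate 1 was 125.9 TPM, below the 153 to 154 TPM of the other 3. Class A plexins took 61.5% of plexin TPM in Pomc replicate 1 against 55.0 to 55.9%. Plexin C1 took 13.5% of plexin TPM in Pomc replicate 4 against 8.35 to 8.90%. Class 6 took 43.5% of semaphorin TPM in Pomc replicate 4 against 39.2 to 39.8%. Pomc replicate 4 also held 43.0 TPM of microglia markers in sum, against at most 0.263 TPM in the other Pomc libraries. Their part in these shares was not tested. The shares within a library are not independent of each other.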

How the results depend on the processing

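Over 13 alternatives, 17 of the 29 genes kept the sign of their log2 fold change wherever they were tested, and 12 changed sign in at least 1. The 7 with an unadjusted p under 0.05 kept theirs. As their groups did not overlap, neither a library left out, nor the pseudocount, a filter or the prior variance could change it. No family gene was called except with all 7 columns, where Sema6a was (1 gene higher in Pomc, log2 0.98 ± 0.17, limma adjusted p = 0.0291; in the other alternatives its adjusted p was at least 0.108); that fit counts the computed Npy column as a library. Called partners went from 1 to 2 with all 7 columns and to 0 with no filter, with median ratio scaling, with 1 prior variance and with the replicate block, and ranged from 0 to 1 with a library left out. All called genes numbered 57, and 37 with a pseudocount of 0.1 TPM, 33 with no filter, 205 with all 7 columns, 12 with the replicate block, and 22 to 69 with a library left out. The causes were not tested. The sources do not say whether libraries with the same replicate number were made together. Such libraries had correlations of -0.044 and -0.033 between their deviations from the group means. The deviations of 2 Npy libraries mirror each other, so these correlations cannot decide whether equal numbers form pairs. The call of the Pomc gene itself ended with 1 prior variance (adjusted p = 0.0625) and with the replicate block (0.0667). Reads per gene are unknown, so a level listed at 0 sets no limit, and 2 Npy libraries limit every difference.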
